A study of Homo sapiens with 24 samples.

Results

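The E2F factors E2F1 to E2F8, FOXM1 and MYBL2 were described in A549 and H1975 cells treated with Pirfenidone or PBS. A probe was taken when its gene name in the deposited scanner files was one of these 10 names, out of 25992 names on the array, which gave 14 of 34127 probes. E2F3 and E2F7 had 2 probes each, E2F6 had 3, and the other 7 genes had 1. All 14 probes were well above background on all 24 arrays. A549 and H1975 are human lung adenocarcinoma cell lines. Each was given the anti-fibrotic drug Pirfenidone, dissolved in PBS, at 0.75 mg/ml, or the same volume of PBS alone, and was harvested after 6 h or 24 h, which gave 8 groups of 3 samples with 1 single-color Agilent array per sample. Each line stands for 1 tumor, no normal lung cells were measured, and the labels do not say whether the 3 samples of a group were separate cultures, so the tests measure the spread between these samples. Values are log2 signals relative to the 75th percentile of the array, and differences are log2 differences. A probe passed a comparison at a Benjamini-Hochberg adjusted p of at most 0.05 over the 23827 probes tested with limma and a difference of at least 2-fold.

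E2F factors bind the promoters of genes for entry into S phase. E2F1, E2F2 and E2F3 are the classical activators, which are held back by the retinoblastoma protein RB1 until cyclin-dependent kinases release them. E2F4 and E2F5 act mainly as repressors together with the RB1 relatives RBL1 and RBL2, E2F6 represses without binding RB1, and the atypical E2F7 and E2F8 repress E2F target genes without a DP partner protein. MYBL2 encodes B-MYB, which joins the MuvB complex at promoters of genes for G2 phase and mitosis, where the forkhead factor FOXM1 joins later in the cycle. Genes of the E2F class are also known as targets of E2F factors, so the promoters of the members are shown before their values.

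The promoter table of RefSeq (GRCh38.p14) held 8 promoters for 7 members, and E2F5, E2F8 and FOXM1 were not among them. Each window spans 250 bases before and 50 bases after a start site and was searched on both strands for the E2F sites TTTCGCGC, TTTGGCGC, TTTCCCGC and TTTGCCGC, for the cell cycle homology region (CHR) TTTGAA or TTCGAA bound by MuvB, and for the CCAAT box. TTCGAA reads the same on both strands, and no matches overlapped in the members' windows. The 250 bases before the start are shown, 5′ to 3′ on the strand of the gene with every match in capitals, for E2F1, E2F2 and MYBL2, whose signals were lower in H1975 cells after 24 h of Pirfenidone, and for E2F7, whose signal was not. E2F1 lies at chr20:33686386-33686635 (minus strand), E2F2 at chr1:23531234-23531483 (minus), MYBL2 at chr20:43666864-43667113 (plus) and E2F7 at chr12:77065570-77065819 (minus).
E2F1: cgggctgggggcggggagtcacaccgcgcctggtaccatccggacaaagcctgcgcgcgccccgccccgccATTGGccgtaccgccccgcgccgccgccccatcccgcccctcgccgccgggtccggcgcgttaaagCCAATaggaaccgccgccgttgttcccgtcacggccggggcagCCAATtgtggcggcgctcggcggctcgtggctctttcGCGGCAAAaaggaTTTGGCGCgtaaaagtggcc
E2F2: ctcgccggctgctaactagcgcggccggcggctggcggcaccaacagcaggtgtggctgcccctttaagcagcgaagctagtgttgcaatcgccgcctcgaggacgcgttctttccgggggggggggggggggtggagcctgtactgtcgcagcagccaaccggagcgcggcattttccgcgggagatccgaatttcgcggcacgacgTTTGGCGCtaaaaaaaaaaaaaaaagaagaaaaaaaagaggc
MYBL2: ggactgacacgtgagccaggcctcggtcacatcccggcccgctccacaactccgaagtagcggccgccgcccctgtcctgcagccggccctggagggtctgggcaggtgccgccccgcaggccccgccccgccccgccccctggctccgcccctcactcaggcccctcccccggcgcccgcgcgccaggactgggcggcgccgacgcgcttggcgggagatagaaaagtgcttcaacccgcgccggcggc
E2F7: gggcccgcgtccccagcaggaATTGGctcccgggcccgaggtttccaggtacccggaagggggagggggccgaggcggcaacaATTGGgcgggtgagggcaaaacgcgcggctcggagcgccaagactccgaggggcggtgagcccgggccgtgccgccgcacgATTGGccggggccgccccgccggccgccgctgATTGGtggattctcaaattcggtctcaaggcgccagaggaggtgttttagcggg
The E2F1 window held 2 E2F sites, TTTGCCGC on the opposite strand from -33 to -26 and TTTGGCGC from -20 to -13 counted from the start, with 3 CCAAT boxes farther upstream. The E2F2 window held TTTGGCGC from -42 to -35 and no CCAAT box. One of the 2 E2F3 starts also had an E2F site, so that 3 of the 8 windows held one, against 3.31% of the 35116 promoters in the table. The E2F7 window held 4 CCAAT boxes and no E2F site, and the MYBL2 window held none of the searched letters. Only exact matches were counted, so sites with other letters would be missed in any window. The CHR was found in 1 of the 8 windows, at E2F3, against 16.4% of all promoters, and the CCAAT box in 3, against 34.6%.

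On every array of both lines, 6 of 6 epithelial markers were well above background. Markers of other cell types were also measured: on all arrays of A549 and of H1975, 1 and 3 of 4 endothelial markers and 2 and 1 of 5 fibroblast markers were well above background. COL1A1, CDH5 and the leukocyte genes CD68 and CD14 were so in both lines, LUM in A549, and PECAM1 and VWF in H1975, while KDR, COL3A1 and DCN were so on no array. The names of the deposited array files carry a day, and arrays of the same day are called a run here. There were 4 runs, each line was measured in 3 of them with 1 array per group, and the place of an array on its slide was fixed by treatment and time, so place and treatment cannot be told apart. The PBS and Pirfenidone arrays of run 3 in H1975 at 24 h were on different slides and were scanned on different days, unlike the other pairs. In A549 cells at 24 h, the pair of run 1 differed from PBS in the opposite direction to the other 2 pairs in every probe of 7 of the 10 genes, and the A549 results at 24 h are therefore given with and without this pair. The labels were used as given. Whether the labels of these 2 arrays were exchanged was not tested, and an exchange would turn the sign of the run 1 differences and move the A549 means at 24 h and all values that use them. In H1975 cells at 24 h, the Pirfenidone array of run 1 had the lowest signal of the 3 Pirfenidone arrays for E2F1, E2F2, E2F8, FOXM1 and MYBL2, and these results are likewise given with and without the pair of run 1.

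After 24 h of Pirfenidone, H1975 cells had less mRNA of the activator E2F2, the atypical repressor E2F8 and MYBL2, which were 2.60-fold, 2.74-fold and 2.12-fold lower than with PBS. These 3 of the 14 member probes passed, all lower, while 1.89% of all probes tested passed in this comparison and 1% passed as lower. On the adjusted p alone, 4 member probes passed, against 6.26% of all probes. E2F1 was 1.999-fold lower and stood just outside the 2-fold limit with an adjusted p of 0.0220. The PBS and Pirfenidone arrays did not overlap for 7 member probes that were lower and 2 that were higher with Pirfenidone, against 15.6% and 16.3% of all probes. RNA was extracted from whole cultures, so fewer cells in a phase of the cycle and less mRNA per cell cannot be told apart in these values.

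**Figure D1:**
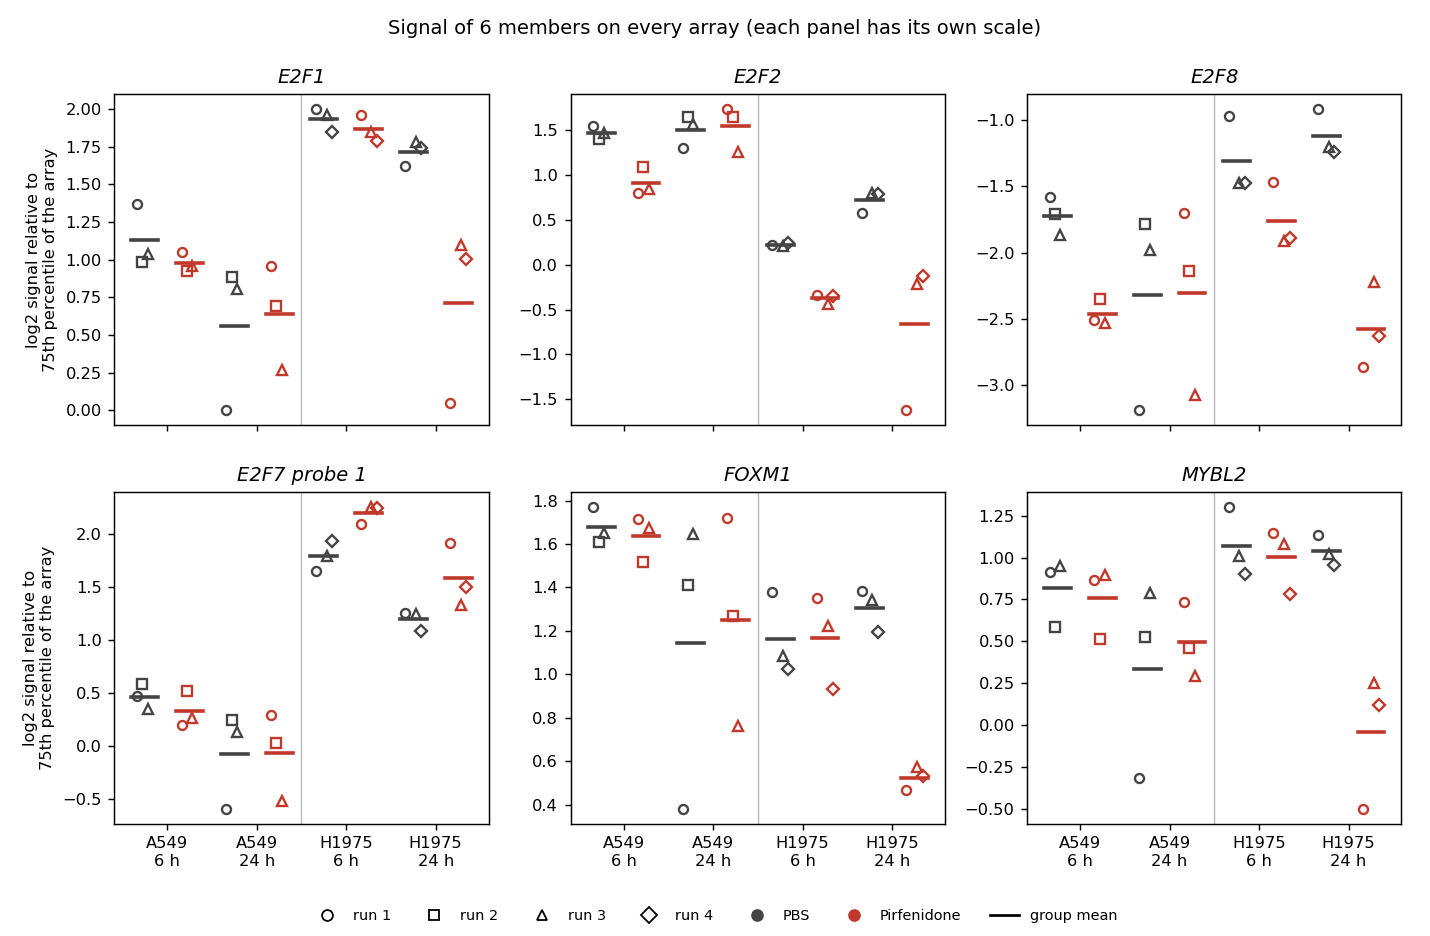
Signal of E2F1, E2F2, E2F8, E2F7 (probe 1), FOXM1 and MYBL2 on each of the 24 arrays, as log2 signal relative to the 75th percentile of the array (vertical axis, own scale per panel) by line and time (horizontal axis). Symbols mark the run, dark points PBS, red points Pirfenidone, and bars the mean of 3 arrays. In H1975 cells at 24 h, every red point lies below every dark one except for E2F7, where every red point lies above, and in A549 cells at 24 h the PBS array of run 1 lies lowest of the PBS arrays in all 6 panels.

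E2F1, measured by a probe at chr20:32263989-32264048 (hg19) printed as 10 spots, read 1.62, 1.78 and 1.74 on the H1975 PBS arrays of runs 1, 3 and 4 at 24 h and 0.05, 1.09 and 1.0015 on the Pirfenidone arrays. All 3 Pirfenidone arrays were below all PBS arrays, and the array of run 1 was far below the other 2. The difference was -0.999 with an SE of 0.24 (n = 3 per group). The 3 Pirfenidone arrays had an SD of 0.58, and the 10 spots within an array an SD of at most 0.06. E2F2, with a probe at chr1:23832933-23832992 (hg19), read 0.57, 0.80 and 0.79 with PBS and -1.62, -0.21 and -0.13 with Pirfenidone. Again the groups did not overlap and run 1 gave the lowest value, and the difference of -1.38 (SE 0.26, adjusted p = 0.00588) passed. The brighter probe of E2F3 read between 0.54 and 0.62 with PBS and between 0.46 and 0.66 with Pirfenidone, and its dimmer probe between -4.35 and -4.18 and between -4.46 and -4.33. Both E2F3 probes overlapped between the groups, with differences of 0.01 (SE 0.13) and -0.15 (SE 0.23).

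Of the atypical repressors, E2F8 and E2F7 differed in sign. E2F8, with a probe at chr11:19245675-19245734 (hg19), read -0.92, -1.20 and -1.24 on the PBS arrays of runs 1, 3 and 4 and -2.86, -2.22 and -2.63 on the Pirfenidone arrays. The groups did not overlap, and the difference of -1.45 (SE 0.32, adjusted p = 0.0141) passed. E2F7 probe 1, at chr12:77415520-77415579 (hg19), read 1.25, 1.24 and 1.09 with PBS and 1.91, 1.32 and 1.50 with Pirfenidone. E2F7 probe 2, at chr12:77417576-77417635, read -3.73, -4.06 and -3.91 with PBS and -3.06, -3.70 and -3.46 with Pirfenidone. Both probes were higher on every Pirfenidone array, but neither passed, with differences of 0.39 (SE 0.21, adjusted p = 0.293) and 0.49 (SE 0.30, adjusted p = 0.364).

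MYBL2, with a probe at chr20:42343796-42343855 (hg19), read 1.14, 1.02 and 0.96 with PBS in runs 1, 3 and 4 and -0.50, 0.25 and 0.12 with Pirfenidone. The difference of -1.08 (SE 0.24, adjusted p = 0.0135) passed, and run 1 gave the lowest Pirfenidone value here too. FOXM1, with a probe at chr12:2967322-2967381 (hg19), read 1.38, 1.34 and 1.20 with PBS and 0.47, 0.57 and 0.53 with Pirfenidone. Its Pirfenidone arrays were the closest together of the 5 lower genes (SD 0.05), and its difference of -0.78 (SE 0.25) missed the threshold with an adjusted p of 0.0655.

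The repressors E2F4, E2F5 and E2F6 did not pass. E2F4, whose probe is annotated over 280 bases at chr16:67231510-67231789 (hg19) against 60 bases for each other probe, read 0.45, 0.19 and 0.07 with PBS and -0.08, -0.10 and -0.24 with Pirfenidone. The arrays did not overlap, with a difference of -0.37 (SE 0.18, adjusted p = 0.218). E2F5 ranged from -1.49 to -1.29 with PBS and from -1.41 to -0.63 with Pirfenidone, with a difference of 0.24 (SE 0.18), and the highest value was on the Pirfenidone array of run 1. The 3 probes of E2F6 differed by -0.11 (SE 0.12), -0.11 (SE 0.11) and -0.30 (SE 0.20), of which the last had no overlap.

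Calls in H1975 cells at 24 h were lost when arrays of run 1 were left out. Without both arrays of that run, 0 member probes passed by limma, while 66 of all probes still did. E2F2 then differed by -0.97 (adjusted p = 0.00606), E2F8 by -1.20 (adjusted p = 0.253), MYBL2 by -0.80 (adjusted p = 0.256), E2F1 by -0.71 (adjusted p = 0.256) and FOXM1 by -0.72 (adjusted p = 0.412), so that each kept its sign. Without the Pirfenidone array of run 1 alone 0 passed, and without its PBS array alone E2F2 passed. In a fit of the 6 arrays alone, only E2F8 passed, and the adjusted p of E2F2 was 0.120 and that of MYBL2 0.0601.

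**Figure D2:**
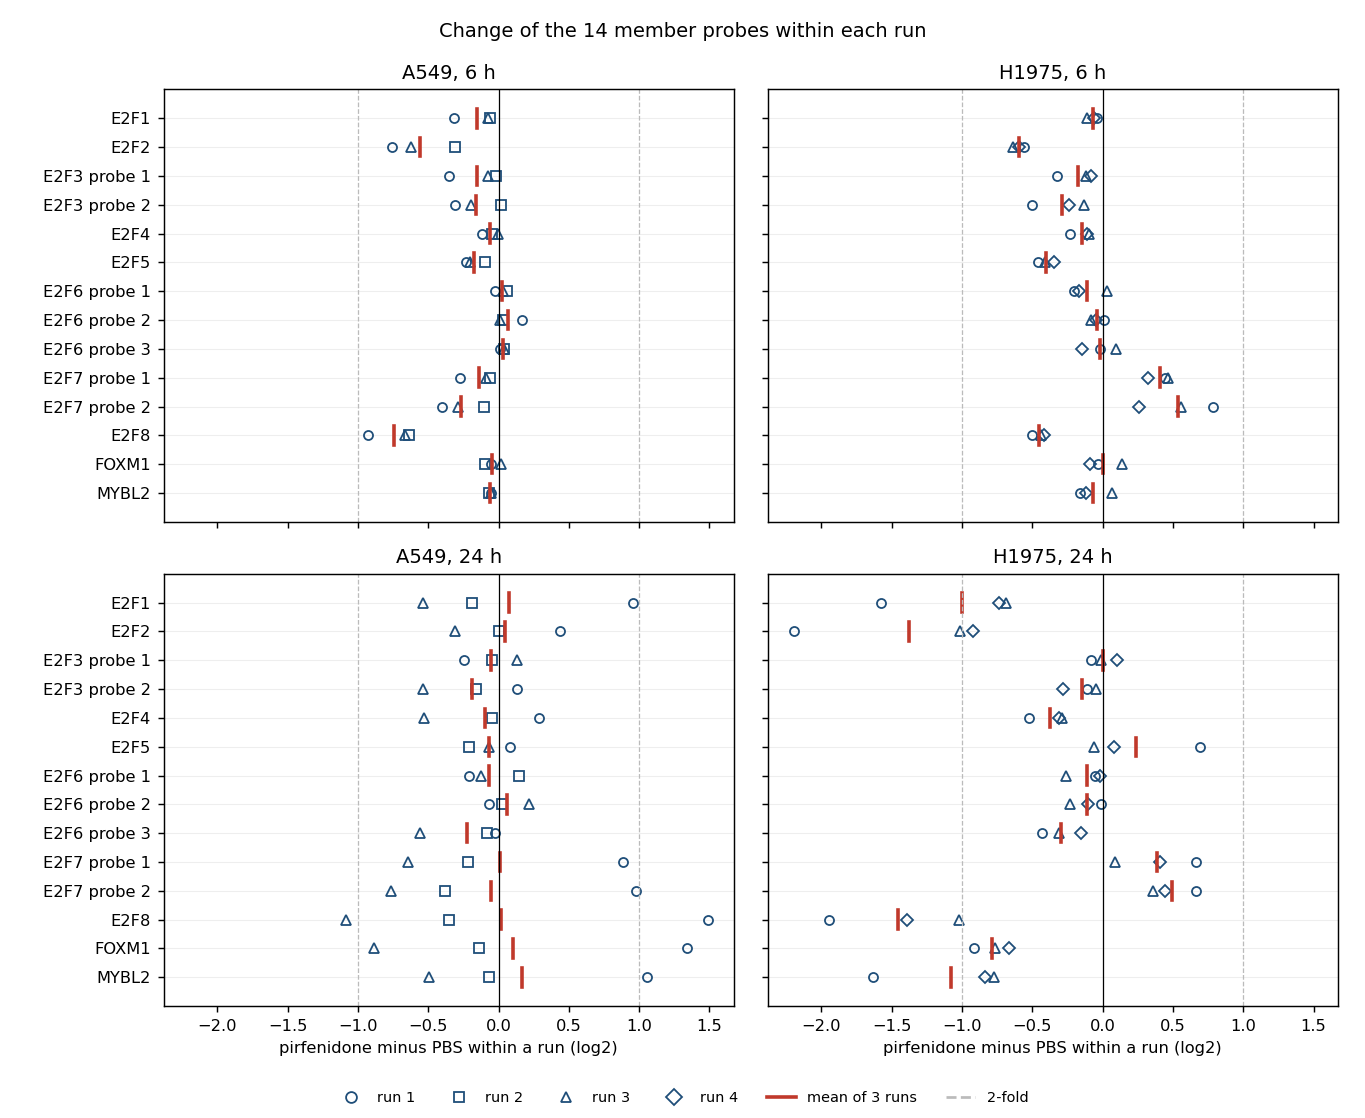
Pirfenidone minus PBS within each run (horizontal axis, log2) for the 14 member probes (vertical axis), with 1 panel per line and time, symbols for the runs and a red bar for the mean of 3 runs. In H1975 cells at 24 h, E2F1, E2F2, E2F8, FOXM1 and MYBL2 lie left of 0 in all 3 runs with run 1 farthest left, and in A549 cells at 24 h run 1 lies right of 0 for the same genes while the others lie at or left of it.

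At 6 h, 0 of the 14 member probes passed by limma in either line, where 0.176% of all probes passed in A549 and 0.491% in H1975. The count at an unadjusted p under 0.05 was 2 in each line, against 6.01% and 11% of all probes. All 14 differences were under 2-fold in both lines. Neither limma nor the methods' t-test, run on differences within runs at the same fold limit, could therefore call any. E2F2 read 1.55, 1.40 and 1.47 on the A549 PBS arrays of runs 1, 2 and 3 and 0.79, 1.09 and 0.84 on the Pirfenidone arrays. In H1975 it read 0.22, 0.20 and 0.24 with PBS in runs 1, 3 and 4 and -0.34, -0.43 and -0.35 with Pirfenidone. E2F2 was thus lower without overlap in both lines, by -0.56 (SE 0.26, adjusted p = 0.785) in A549 and -0.60 (SE 0.26, adjusted p = 0.374) in H1975. E2F8 read -1.58, -1.71 and -1.87 with PBS in A549 and -2.51, -2.35 and -2.53 with Pirfenidone, a difference of -0.74 (SE 0.32, adjusted p = 0.724) without overlap. In H1975 the E2F8 arrays overlapped, with a difference of -0.45 (SE 0.32), although Pirfenidone was the lower array in each of the 3 runs. In all, 3 member probes were lower without overlap in A549 at 6 h (8.23% of all probes), the third being E2F5 at -0.18, where none was higher (7.03%), and in H1975 2 were lower (7.14%), E2F2 and the dimmer E2F3 probe at -0.29, and 2 were higher (10.6%).

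E2F7 was the only gene of the 10 that was higher without overlap in H1975 at 6 h. Its probe 1 read 1.65, 1.79 and 1.93 with PBS in runs 1, 3 and 4 and 2.09, 2.25 and 2.25 with Pirfenidone, and its probe 2 read -3.51, -3.46 and -3.04 and then -2.72, -2.90 and -2.78. The differences were 0.41 (SE 0.21, adjusted p = 0.505) and 0.53 (SE 0.30, adjusted p = 0.571). E2F1, FOXM1 and MYBL2 differed by between -0.15 and 0.01 in the 2 lines at 6 h, with SE of 0.24 to 0.25.

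In A549 cells at 24 h, 0 of the 14 member probes passed by limma and 0 had an unadjusted p under 0.05, while 0.0126% and 0.953% of all probes did. All 14 differences were under 2-fold, so neither limma nor the methods' t-test could call any under the fold limit. No member probe was higher or lower without overlap, against 0.562% and 1.25% of all probes. E2F1 read -0.0002, 0.88 and 0.81 with PBS in runs 1, 2 and 3 and 0.96, 0.69 and 0.27 with Pirfenidone. E2F8 read -3.19, -1.79 and -1.98 with PBS and -1.70, -2.14 and -3.07 with Pirfenidone. Run 1 had the lowest PBS array and the highest Pirfenidone array in both genes. FOXM1 read 0.38, 1.41 and 1.64 with PBS and 1.72, 1.27 and 0.76 with Pirfenidone. MYBL2 read -0.32, 0.53 and 0.79 with PBS and 0.74, 0.46 and 0.29 with Pirfenidone. For FOXM1 and MYBL2 too, run 1 had the lowest PBS array and the highest Pirfenidone array, and their mean differences over the 3 runs were 0.10 (SE 0.25) and 0.16 (SE 0.24). Without the pair of run 1, the differences were -0.51 for FOXM1, -0.28 for MYBL2, -0.36 for E2F1, -0.72 for E2F8 and -0.43 and -0.57 for the E2F7 probes. All member differences were again under 2-fold, so 0 could pass.

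The change with Pirfenidone at 24 h was compared between the lines in the same fit. H1975 minus A549 was -1.42 for E2F2 (SE 0.36, adjusted p = 0.107), -1.47 for E2F8 (SE 0.46, adjusted p = 0.183), -1.25 for MYBL2 (SE 0.34, adjusted p = 0.131), -1.08 for E2F1 (SE 0.34, adjusted p = 0.194) and -0.89 for FOXM1 (SE 0.35, adjusted p = 0.295). None of the 14 member probes passed by limma, where 0.193% of all probes did, and 5 had an unadjusted p under 0.05, against 12.2% of all probes. With the run as a block, E2F2 passed with an adjusted p of 0.0339, and the methods' t-test called E2F2 at its unadjusted p. Without the A549 pair of run 1, the difference was -1.22 for E2F2, -0.73 for E2F8 and -0.27 for FOXM1, and 0 passed. At 6 h the same comparison gave 0 passed member probes, against 0.0336% of all probes, and 0 at an unadjusted p under 0.05 (2.63%). All 14 of these values at 6 h were under 2-fold, so neither limma nor the methods' t-test could call any. The change at 24 h minus that at 6 h passed for 0 member probes by limma in either line (0.0294% of all probes in A549 and 0.0042% in H1975), with 0 (3.04%) and 6 (5.86%) at an unadjusted p under 0.05. In A549 all 14 of these values were under 2-fold, so none could pass. In H1975 only MYBL2 reached 2-fold. The H1975 value was -1.01 for MYBL2 (SE 0.34, adjusted p = 0.585) and -0.93 for E2F1 (SE 0.34, adjusted p = 0.675).

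Genes that these factors are known to control were counted in H1975 cells at 24 h. Each gene was represented by its brightest probe. All genes tested are here the 18246 gene names tested, which include probes without a gene that carry an accession or probe ID as name. Of these names, 0.948% passed higher and 0.976% passed lower in this comparison. Of 30 G1/S genes under E2F control, 10 passed, all lower, and the median difference was -0.87, beside a median of 0.03 over all genes tested. RRM2, a subunit of ribonucleotide reductase, differed by -1.40 (adjusted p = 0.0131) and the replication licensing factor CDT1 by -1.36 (adjusted p = 0.0177), and both passed. The smallest differences of the list were those of the cyclin gene CCNE1 at -0.23 and the checkpoint kinase gene CHEK1 at -0.29, which did not pass. Of 30 G2/M genes under control of B-MYB, FOXM1 and MuvB, 24 passed, all lower, with a median of -1.20. The mitotic kinesin KIF20A differed by -1.63 (adjusted p = 0.0200) and the spindle checkpoint kinase BUB1B by -1.42 (adjusted p = 0.0141). The phosphatase gene CDC25B at -0.21 and CKS2, which encodes a partner of cyclin-dependent kinases, at -0.76 were the smallest and did not pass.

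**Figure D3:**
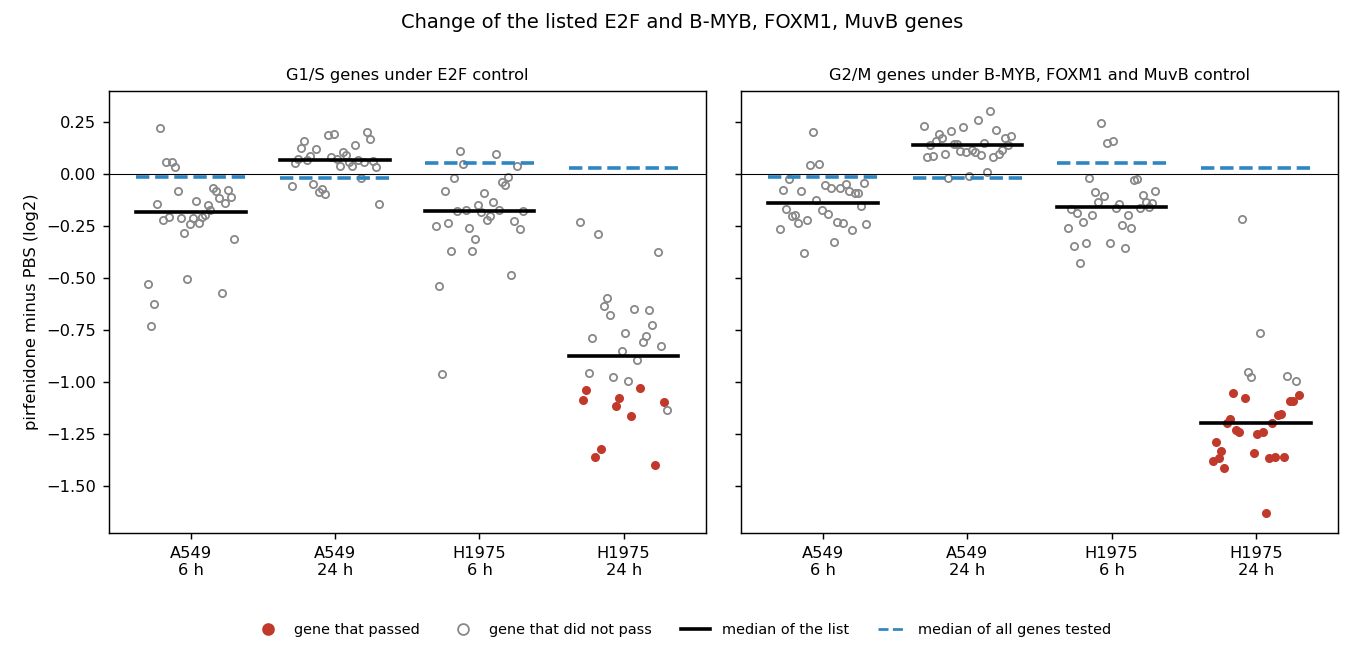
Pirfenidone minus PBS (vertical axis, log2) of each of 30 G1/S genes under E2F control (left) and 30 G2/M genes under B-MYB, FOXM1 and MuvB control (right) in the 4 comparisons (horizontal axis). Filled red points passed, black bars are the median of the list and dashed blue bars the median of all genes tested. All points of both lists lie below 0 in H1975 cells at 24 h, where 10 and 24 genes passed. In the other 3 comparisons all points are under 2-fold, so no gene could pass.

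The level of the G2/M list, as the mean log2 signal of its 30 genes, was 2.13, 2.10 and 2.07 on the H1975 PBS arrays of runs 1, 3 and 4 at 24 h and 0.50, 1.16 and 1.13 on the Pirfenidone arrays. In A549 at 24 h it was 0.70, 2.03 and 2.12 with PBS in runs 1, 2 and 3 and 2.13, 1.79 and 1.33 with Pirfenidone. Within each treatment, the list thus had the same order of runs as MYBL2 and FOXM1, with run 1 of A549 against the other pairs. Without the H1975 pair of run 1 at 24 h, 0 genes of either list passed and the medians were -0.64 for the G1/S list and -0.97 for the G2/M list. Without the A549 pair of run 1 at 24 h, the A549 medians turned from 0.07 to -0.29 for the G1/S list and from 0.14 to -0.54 for the G2/M list, again with 0 genes that passed. In the promoter table, 16 of the 25 G1/S genes found there (64%) held an E2F site and 2 (8%) a CHR. Of the 25 G2/M genes found, 3 (12%) held an E2F site and 17 (68%) a CHR, beside 3.99% and 19.5% of all 27305 genes in the table. The CCAAT box was found for 19 genes (76%) of the G1/S list, 22 (88%) of the G2/M list and 39.7% of all genes. These lists were made of genes known for such control, so the shares describe the lists.

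The partners and regulators of the members were read in the same way. Of the DP proteins that pair with E2F factors, TFDP1 differed by -0.36 (SE 0.15) and TFDP2 by 0.17 (SE 0.10) in H1975 at 24 h, and neither passed. The pocket protein genes RB1, RBL1 and RBL2 differed by -0.23, -0.71 and 0.29, with adjusted p of 0.725, 0.101 and 0.134. In the group of MuvB subunits and MYB relatives, 0 of 7 genes passed. LIN9, a MuvB subunit to which B-MYB binds, came nearest with -0.85 (adjusted p = 0.0156), LIN52, LIN54 and RBBP4 differed by -0.30, -0.36 and -0.35, LIN37 by 0.21, MYB by -0.73 and MYBL1 by -0.63. Of the 7 G1 cyclins and kinases tested, CCNE2, which is also on the G1/S list, passed with -1.09 (adjusted p = 0.00768). CDK2, the kinase of cyclin E, differed by -0.98 (adjusted p = 0.00390) and did not reach the 2-fold limit, CCND3 by -0.69, CDK6 by -0.63, CDK4 by -0.37, CCNE1 by -0.23 and CCND1 by 0.03. At 6 h in either line and in A549 at 24 h, 0 genes of these lists or of the G1/S and G2/M lists passed by limma. All their differences there were under 2-fold, so none could pass. Of all genes, 0.142% passed higher and 0.0493% lower for A549 at 6 h, 0.438% and 0.0932% for H1975 at the same time, and 0.00548% and 0.011% in A549 at 24 h.

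Under PBS, the lines differed in the E2F family at both times. H1975 had more E2F7 than A549, 2.51-fold and 2.86-fold by its 2 probes at 6 h and 2.41-fold and 2.97-fold at 24 h, and less E2F2, 2.38-fold at 6 h. In all, 3 of the 14 member probes passed at 6 h, where 32.4% of all probes passed, and 5 at 24 h, where 32.9% did, so the members were called about as often as other probes. Of these, 2 were higher in H1975 at 6 h (as did 4071 of the 23827 probes) and 1 lower (15.3%), and at 24 h 4 were higher (18%) and 1 lower (14.9%). On the adjusted p alone the counts were 9 (58.6%) and 12 (59.2%). Without overlap, 5 probes were higher (34.7%) and 7 lower (31.6%) in H1975 at 6 h, and 6 higher (34.5%) and 6 lower (29.2%) at 24 h. E2F7 probe 1 read 0.47, 0.58 and 0.35 in A549 at 6 h in runs 1, 2 and 3 and 1.65, 1.79 and 1.93 in H1975 in runs 1, 3 and 4. E2F7 did not overlap between the lines, and within runs 1 and 3, which held both lines, the difference of probe 1 was 1.18 and 1.45 at 6 h and 1.84 and 1.11 at 24 h (fit: 1.33 with SE 0.21, adjusted p = 2.07e-05, and 1.27 with SE 0.21, adjusted p = 3.38e-05). Under normexp background correction, E2F7 probe 2 differed by 0.99 at 6 h and 0.81 at 24 h and passed at neither time. E2F2 differed by -1.25 (SE 0.26, adjusted p = 0.000347) at 6 h, with -1.34 and -1.26 within runs 1 and 3, and by -0.78 (SE 0.26, adjusted p = 0.0132) at 24 h, which missed the 2-fold limit.

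**Figure D4:**
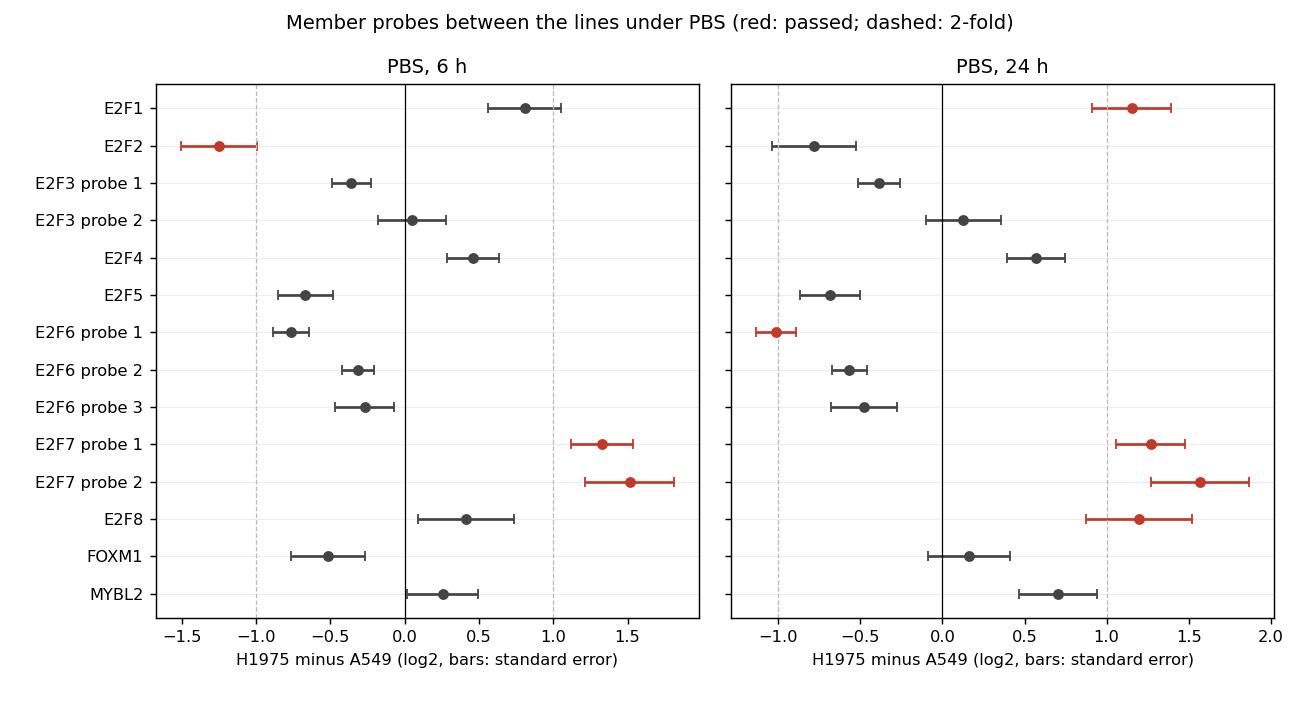
H1975 minus A549 under PBS (horizontal axis, log2) of the 14 member probes (vertical axis) at 6 h and 24 h. Points are the fitted differences, bars their standard errors, red points passed and dashed lines mark 2-fold. E2F7 lies to the right with both probes at both times, and E2F2 and all 3 E2F6 probes lie to the left.

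At 24 h, E2F1 and E2F8 also passed as higher in H1975, by 1.15 (SE 0.24, adjusted p = 0.000456) and 1.20 (SE 0.32, adjusted p = 0.00352). Within runs 1 and 3 the E2F1 difference was 1.62 and 0.97 and the E2F8 difference 2.27 and 0.78, and without the A549 PBS array of run 1 the fitted differences were 0.87 and 0.76 and no longer passed. E2F6 probe 1 passed as lower in H1975, by -1.01 (SE 0.12, adjusted p = 8.09e-07) at 24 h, with -1.02 and -0.92 within runs 1 and 3. It fell below the 2-fold limit and did not pass with the run block (-0.91), under normexp (-0.97) or quantile normalization (-0.96), without the A549 PBS array of run 1 (-0.998) or without H1975 PBS replicate 2 (-0.95). The other E2F6 probes gave -0.57 and -0.48, so the 3 probes had 1 sign and different sizes, and the mean of the gene's probes differed by -0.69. The 2 E2F3 probes disagreed, with -0.39 (adjusted p = 0.0150) and 0.13 (adjusted p = 0.655) at 24 h. MYBL2 differed by 0.71 (adjusted p = 0.0154), E2F4 by 0.57 and E2F5 by -0.68, all under the 2-fold limit, and FOXM1 by 0.16 (adjusted p = 0.597). Without the A549 PBS array of run 1, MYBL2 differed by 0.38 and FOXM1 turned to -0.22. Of the partners and regulators tested, 1 of 2 DP genes passed at 24 h, TFDP2, which was higher in H1975 by 1.39 (adjusted p = 2.63e-10). Of the 3 pocket protein genes, RBL1 was higher by 1.32 (adjusted p = 0.000161) and RB1 differed by -1.16 (adjusted p = 0.00182). Of the 7 MuvB subunits and MYB relatives, MYBL1 was higher by 2.08 (adjusted p = 5.28e-07) and MYB by 1.22 (adjusted p = 0.0346), and of the 7 G1 cyclins and kinases, CCND3, CDK6 and CCNE1 passed as lower with -1.86, -1.48 and -1.08. Of all genes tested, 17.7% passed as higher in H1975 and 15.2% as lower.

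Within PBS cultures, 24 h against 6 h gave 0 of 14 passed member probes by limma in each line, where 0.109% of all probes passed in A549 and 0.315% in H1975. The member differences were all under 2-fold, so neither limma nor the methods' t-test could call any. At an unadjusted p under 0.05 there were 3 member probes in A549 (8.49% of all probes) and 2 in H1975 (10.6%). In A549, 2 member probes were lower without overlap (6.81%) and 0 higher (8.2%), and in H1975 6 were lower (8.23%) and 1, E2F2 at 0.50, was higher (10.7%). E2F7 probe 1 was lower at 24 h in both lines without overlap, by -0.54 (SE 0.21, adjusted p = 0.487) in A549 and -0.60 (SE 0.21, adjusted p = 0.247) in H1975. The A549 difference included the PBS array of run 1 at 24 h, which read -0.59 against 0.24 and 0.12 for the other 2.

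Over the 24 arrays, with the mean of each line subtracted, the correlations between members ranged widely. E2F1 and MYBL2 had a Pearson r of 0.943, FOXM1 and MYBL2 of 0.895, E2F1 and FOXM1 of 0.837, E2F8 and FOXM1 of 0.832, E2F8 and MYBL2 of 0.81 and E2F1 and E2F8 of 0.802. The repressor gene E2F4 correlated with FOXM1 at 0.803, with MYBL2 at 0.746 and with E2F8 at 0.74. E2F2 correlated with E2F8 at 0.712, with E2F1 at 0.531, with MYBL2 at 0.516 and with FOXM1 at 0.361. E2F7 correlated with E2F8 at 0.19 and with E2F2 at -0.401. Of 13330 other genes, those most like E2F1 were CDCA5 (0.978), GSG2, RRM1 and LIN9 (0.976 each), and those most like MYBL2 were AURKB (0.965), PPM1G, AURKA and CDCA3 (0.964 each). The genes most like FOXM1 were LOC81691 (0.949), named REXO5 in current RefSeq, CDCA3 (0.946), CORO1A and PTTG1 (0.945 each), and those most like E2F8 were ACYP1 (0.967), SNRNP70 (0.964), the antisense RNA KDM4A-AS1 (0.95) and RABEP2 (0.94). RRM1 is on the G1/S list, LIN9 on the MuvB list, and AURKA, AURKB and PTTG1 on the G2/M list. The points share arrays, runs and the 75th percentile by which each array was scaled, so these correlations are a description.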

How the data were processed

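Total RNA of 24 samples was labeled with Cy3 and hybridized to 1 Agilent array each. The authors deposited spot intensity values as extracted with Feature Extraction 11.5.1.1 (per the file headers), which subtracts background and does not normalize between arrays, and a table of processed log2 values, in which the authors had set each probe's median to 0. How that table was made is not stated in the sources. The largest median of a probe in it was 5e-04 in size and its column medians ran from -0.16 to 0.16, and the constant subtracted per array is unknown.

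From the log2 processed signal of each spot, the 75th percentile of the array's 43118 non-control spots was subtracted. Repeat spots were averaged without those marked as outliers. The 23827 of 34127 probes that some group measured well above background on each of its 3 arrays entered a single limma fit (version 3.58.1, R version 4.3.3) of 8 groups with 16 residual degrees of freedom. The study's methods used a moderated test with a 2-fold limit and Westfall-Young adjustment, in place of which Benjamini-Hochberg and Holm adjustment were used. Per array, 62.7% to 69.5% of probes exceeded background, with 0 saturated spots. The number of arrays limits the precision. On simulated arrays for H1975 at 24 h with 23748 probes, 77 of 100 probes changed by 1.5 on the log2 scale and 89 of 100 changed by 2 passed, with 4 false calls. The simulated noise was independent between arrays and had 1 SD per probe for all groups. On the real arrays, E2F2 had an SD of 0.84 with Pirfenidone and 0.13 with PBS in H1975 at 24 h, and arrays of a run deviated together. These shares therefore need not hold for the real comparison.

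Alternatives were normexp background correction, quantile normalization, the authors' values, other filters, blocks for run, slide or replicate number, other adjustments and fold limits, averaged probes, and fits without single arrays or pairs. The methods' t-test was a further alternative, the Student's t-test of the study's general statistics and not its moderated array test. It was run on differences within runs, or on the arrays of the 2 lines as separate samples under PBS. Groups and replicate numbers came from the sample labels, and runs from the day in the file names. Samples of the same run deviated together from their group means in H1975 (r between 0.46 and 0.82) and in A549 at 6 h (0.58 to 0.70), but not in A549 at 24 h (-0.10, 0.39 and 0.08). The members, gene lists, motifs and tests were chosen with earlier results of these data known. Named were all members, all genes of lists of up to 8 genes, the 2 largest and 2 smallest differences in H1975 at 24 h of longer lists, and the 4 genes most like E2F1, E2F8, FOXM1 and MYBL2; probes without a gene symbol were left out of the likeness. Probe positions are those of the array files on hg19, of which no annotation was used, and promoters are from RefSeq on GRCh38.p14.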

Additional observations from a re-analysis of the deposited data

Results flagged for a closer look

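E2F7 is given here because its change with Pirfenidone at 6 h had opposite signs in the 2 lines in every run. Probe 1 changed by -0.28, -0.06 and -0.09 in A549 (runs 1, 2 and 3) and by 0.44, 0.46 and 0.32 in H1975 (runs 1, 3 and 4), and probe 2 by -0.40, -0.10 and -0.29 and by 0.79, 0.56 and 0.26. The difference between the lines was 0.55 (SE 0.29) for probe 1 and 0.80 (SE 0.42) for probe 2, and both missed the threshold of limma with an adjusted p of 0.9998. The probes measure the same samples and are not separate evidence.

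E2F6 probe 3 is given here because its change in A549 was above 0 in all 3 runs at 6 h (0.01, 0.04 and 0.04 in runs 1, 2 and 3) and below 0 in all 3 at 24 h (-0.02, -0.08 and -0.56). The change at 24 h minus that at 6 h was -0.25 (SE 0.28) with an adjusted p of 0.9999, and the other 2 probes of E2F6 did not show this order.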

How the results depend on the processing

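No member probe that passed changed sign under any alternative. In H1975 at 24 h, the count of 3 passed member probes became 1 in a fit of only the arrays compared, 0 with Holm adjustment, 1 by the methods' t-test at an unadjusted p and 0 after Benjamini-Hochberg, and 0 without both H1975 arrays of run 1, an alternative chosen after seeing the data. With 1 array left out it ranged from 0 to 4, with 0 without Pirfenidone replicate 3 (run 1), 1 (E2F2) without PBS replicate 3 (run 1), and 4 (with E2F1) where another Pirfenidone array was left out. E2F1 crossed the 2-fold limit and passed under normexp (-1.01), the authors' values (-1.04) and the slide block (-1.03). For H1975 against A549 under PBS, the 3 at 6 h became 0 with Holm adjustment and 9 with no limit on the fold change, and the 5 at 24 h became 3 under normexp, 3 with a gene's probes averaged into 1 value (fewer units), 1 with Holm adjustment, 12 with no limit on the fold change and 2 without the A549 pair of run 1 (2 to 5 with 1 array left out). For the line difference of the drug change at 24 h, the count of 0 became 1, E2F2, with the run block and by the methods' t-test at an unadjusted p. Of the 3836 values of single member probes under alternatives, 39 lost and 21 gained a call. The causes were not tested.

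Over all probes, the 451 that passed in H1975 at 24 h became 172 under normexp, 702 with the run block, 143 in a fit of only the arrays compared, 33 with Holm adjustment, 1492 with no limit on the fold change and 66 without the H1975 pair of run 1, and the 24 G2/M genes became 8 under normexp. The replicate block gave 3 passed member probes in H1975 at 24 h, the same 3 genes, and changed no other call of a member. The replicate numbers did not pair the H1975 samples at 6 h (r of -0.48, 0.43 and -0.68). The slide block could not be fitted for H1975 against A549 under PBS, since no slide held both lines.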
